A study of Mus musculus with 12 samples.

Results

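Interferon-inducible GTPases are a large family of proteins that cells make after interferon binds its receptor. The guanylate-binding proteins (Gbp genes) and the immunity-related GTPases (Irgm1, Irgm2, Igtp and Iigp1) attach to the membranes around intracellular microbes and take part in inflammasome activation and autophagy. Irf1 is the transcription factor, itself induced by interferon-gamma and by NF-kappaB, that switches on many genes of this family. The set described here lists 9 genes: Gbp2, Gbp3, Gbp5, Gbp7, Irgm1, Igtp, Irgm2, Iigp1 and Irf1. Each was matched by its platform symbol, and where a symbol had several probe sets the one with the highest mean stood for the gene. Of these, 8 were measured, each by 1 probe set, among 19505 genes. The expression of Gbp5 was not analysed here, and only its upstream DNA is described. Gbp2 was picked on its measured rise with co-treatment, so its values in that comparison, and those of the genes grouped with it, are a description.

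The cells were cardiac fibroblasts from hearts of wildtype C57BL/6J mice aged 1 to 7 days, kept 10 to 14 days in culture and labelled as differentiated into myofibroblasts. All 4 groups shared that genotype, age and culture, and each held 3 arrays: carrier, 40 nM sCD74 (the soluble form of CD74, the MIF receptor), 8 nM MIF (macrophage migration inhibitory factor, a cytokine), or both proteins together. RNA was taken after 8 h, and 150 ng of it went onto each whole-transcript array. Replicate numbers 1, 2 and 3 carry 1 code each in the sample titles, shared by all 4 groups, so each number holds 1 array of every group. The labels do not say whether same-group arrays came from separate isolations of cells or how many animals were pooled, and p-values therefore measure only the spread between these arrays.

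Array medians lay between 8.01 and 8.14 on the log2 scale, and over genes the correlation within a group was 0.981 to 0.990. The labelled cell type was borne out by its own genes: the 9 measured fibroblast markers had a list mean of 15.23 to 15.45 on every array. Markers of other cells were present as well, with a list mean of 11.97 to 13.47 for 13 macrophage genes and of 9.32 to 10.96 for 10 endothelial genes. Of 9 lymphocyte markers, 8 had means below 7.53, the level of the negative control probe sets (the array medians, averaged), and the exception was Cd4. In these mixed cultures, fewer cells of a type and less RNA per cell cannot be told apart.

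Of the 8 measured genes, 7 lay above 7.53 on every array. The exception was Igtp, which was at 7.34 in carrier array 1 and at 7.17 in sCD74 array 1. All differences are given in log2 units as deposited, and no folds are derived from them because that scale runs above the range of a 16-bit scanner. Because Gbp and Irg genes have close relatives, part of a probe set's signal can come from a paralog, and members of a cluster are not independent measurements.

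The DNA just upstream of these genes shows what the family shares and where Irf1 stands apart. RefSeq (GRCm38.p6) gave windows from 250 bases before to 50 bases after annotated starts for 8 of the 9 listed genes, all but Iigp1. Both strands were searched for the core of the interferon-stimulated response element, GAAANNGAAA, bound by IRF factors, for the gamma-activated site, TTCNNNGAA, and for the NF-kappaB consensus. The response element core was found in 7 of the 8 genes, all but Irf1, against 3.94% of the 15691 tested genes with a window. The gamma-activated site was found in 5 of 8 (Gbp5, Gbp7, Igtp, Irgm2 and Irf1), against 9.02% of genes, and the NF-kappaB consensus in 3 of 8 (Gbp2, Gbp5 and Irf1), against 10.6%. Over all 32851 windows of this length the shares were 3.44%, 8.30% and 8.46%. Of the 7 measured members with a window, 6, 4 and 2 held these motifs, in the same order. Position -1 is the base just before the annotated start, positions give the first base of a match, and each match is a description of letters.

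The stretches that hold the upstream matches of the measured genes are shown to compare their arrangement, 5′ to 3′ on the strand of the gene, with the matched letters in capitals.
Gbp2, chr3:142620594-142620623, plus strand: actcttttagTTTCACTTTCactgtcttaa
Gbp3, chr3:142559989-142560024, plus strand: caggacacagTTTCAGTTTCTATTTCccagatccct
Gbp7, chr3:142530220-142530302, plus strand: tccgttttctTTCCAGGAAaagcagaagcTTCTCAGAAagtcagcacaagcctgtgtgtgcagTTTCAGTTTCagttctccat
Irgm1, chr11:48871425-48871460, minus strand: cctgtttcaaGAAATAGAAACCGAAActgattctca
Igtp, chr11:58199501-58199541, plus strand: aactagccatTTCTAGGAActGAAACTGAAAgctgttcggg
Irgm2, chr11:58214892-58214932, plus strand: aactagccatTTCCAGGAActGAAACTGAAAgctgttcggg
Irf1, chr11:53769914-53770013, plus strand: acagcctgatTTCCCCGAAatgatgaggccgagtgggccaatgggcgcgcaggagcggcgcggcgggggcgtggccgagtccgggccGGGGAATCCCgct
The response element core began at -59 in Gbp2 and at -53 in Gbp7. Gbp3 held overlapping copies at -45 and -39, and Irgm1 overlapping copies at -30 and -24. The core lay on the strand opposite to the gene in Gbp2, Gbp3 and Gbp7, and on the strand of the gene in Irgm1, Igtp and Irgm2. Igtp and Irgm2, neighbours on chromosome 11, were identical at 40 of 41 bases, with a gamma-activated site ahead of the response element core: at -45 and -34 in Igtp, and at -75 and -64 in Irgm2. Gbp7 carried gamma-activated sites at -106 and -87 as well. Irf1 had a gamma-activated site at -90 and an NF-kappaB match at -13. The NF-kappaB match of Gbp2 lay after its start and is not shown. Gbp7 and Gbp3 are neighbours on chromosome 3, and Gbp2b alone lies between Gbp3 and Gbp2 among protein-coding genes.

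**Figure D1:**
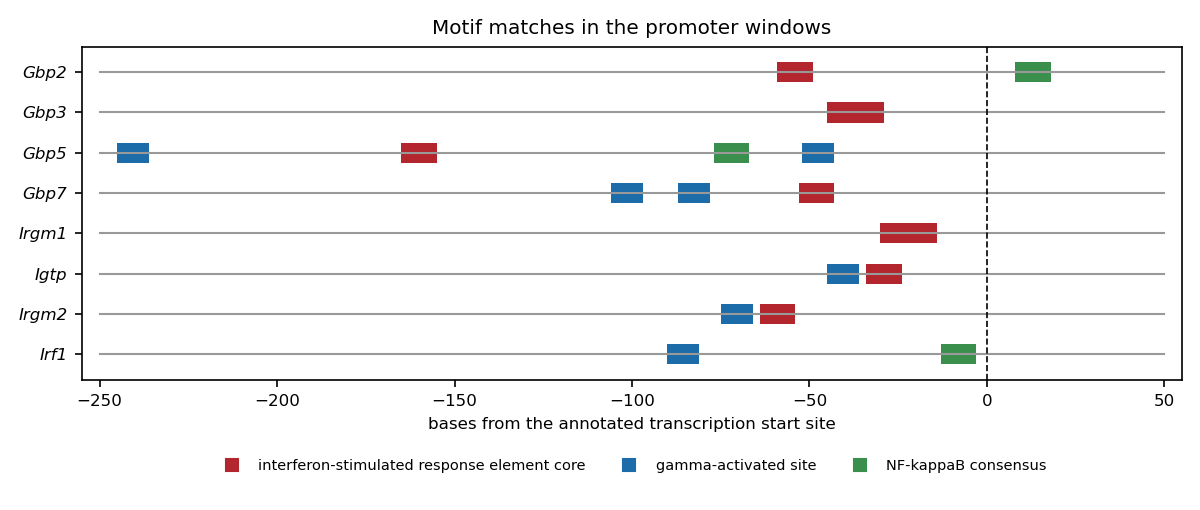
Motif matches in the RefSeq windows of the listed genes, plotted by distance in bases from the annotated start (x axis), with 1 row per gene and a colour per motif. The response element core begins between -64 and -24 in the 6 measured genes that hold it, and Irf1 holds the other motifs only.

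Gbp2, a guanylate-binding protein that coats pathogen vacuoles, had the widest span of the set. Its log2 values were 9.25, 10.39 and 9.80 in carrier arrays 1, 2 and 3, and 9.42, 11.21 and 10.96 with sCD74. They were 9.46, 10.91 and 11.72 with MIF, and 10.00, 11.90 and 11.96 with both proteins. Array 1 was the lowest of its group in all 4 groups, and the groups overlapped because co-treated array 1 lay below carrier array 2. Group means were 9.81 ± 0.57 (SD, n = 3), 10.53 ± 0.97, 10.70 ± 1.14 and 11.29 ± 1.12 in the same order. Within each number the co-treated array was above its carrier array, by 0.75, 1.51 and 2.16, and these differences chose the gene. The difference in means was 1.47 ± 0.64 (SE). Co-treated arrays, the ones that chose the gene, also stood above MIF arrays of the same number for Gbp2, by 0.53, 0.99 and 0.24. The difference in means from MIF was 0.59, and -0.03 without MIF array 1. That fit kept co-treated array 1, so the gap between replicate numbers enters the value of -0.03.

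Gbp3, another guanylate-binding protein, read 9.51, 10.19 and 9.99 with carrier and 9.44, 11.12 and 10.88 with sCD74. It read 9.47, 10.74 and 11.25 with MIF and 9.80, 11.60 and 10.77 with both. In carrier, sCD74 and MIF arrays, number 1 stood at 9.44 to 9.51 with no order by treatment, while numbers 2 and 3 lay above carrier under every treatment. Its mean difference from carrier was 0.58 ± 0.54 with sCD74, 0.59 ± 0.54 with MIF and 0.82 ± 0.54 with both (SE). Gbp7, also of the guanylate-binding group, spanned a narrow range. It read 11.95, 12.01 and 11.78 with carrier, 11.46, 12.14 and 11.87 with sCD74, 11.46, 12.16 and 12.32 with MIF, and 11.69, 12.52 and 11.99 with both. Its differences from carrier were -0.09 ± 0.25, 0.07 ± 0.25 and 0.15 ± 0.25. It was the only member not above carrier in every co-treated pair, with -0.25 in number 1.

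Irgm1 encodes a regulatory GTPase that restrains other family members and takes part in autophagy. Carrier arrays read 11.05, 11.22 and 11.31, sCD74 arrays 11.09, 11.58 and 11.54, MIF arrays 11.13, 11.42 and 11.68, and co-treated arrays 11.29, 12.16 and 11.55. Co-treated array 2 was the highest of the 12, and the treated groups all overlapped carrier. Irgm1 lay above carrier in each pair under each treatment, by as little as 0.04 (sCD74, number 1) and as much as 0.95 (both, number 2). Igtp, also known as Irgm3 and likewise a regulatory GTPase, read 7.34, 8.09 and 8.14 with carrier and 7.17, 9.07 and 8.59 with sCD74. It read 7.96, 8.49 and 8.85 with MIF and 7.82, 9.07 and 8.71 with both, with array 1 the lowest of each group. Its differences from carrier were 0.42 ± 0.45 with sCD74, 0.58 ± 0.45 with MIF and 0.68 ± 0.45 with both (SE). Irgm2, the neighbour with the near-identical upstream stretch, read 9.45, 9.75 and 9.49 with carrier, 8.85, 10.16 and 9.67 with sCD74, 8.87, 9.86 and 10.54 with MIF, and 9.63, 10.76 and 9.73 with both. Its differences from carrier were -0.00 ± 0.42, 0.19 ± 0.42 and 0.48 ± 0.42. In number 1, the sCD74 and MIF arrays lay below carrier for Irgm2.

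Iigp1 is an effector GTPase loaded onto parasite vacuoles. Its carrier arrays agreed closely, at 8.10, 8.10 and 8.07, a mean of 8.09 ± 0.02 (SD, n = 3). They stood only 0.41, 0.73 and 0.37 above the negative control median of their own array, so near that level. With sCD74 it read 7.74, 9.02 and 8.97, with MIF 8.37, 8.92 and 10.01, and with both 8.43, 9.29 and 9.01. Every MIF array and every co-treated array lay above every carrier array, which held for no other member. That is 1 of 8 in each comparison, against 3.64% of all genes for MIF and 4.52% for co-treatment. The MIF difference of 1.01 ± 0.40 (SE) had an unadjusted p of 0.0255 in limma and an adjusted p of 1.00, so it did not pass. Blocking on the replicate number gave an unadjusted p of 0.00324 and an adjusted p of 0.690.

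Irf1 is the transcription factor of the set. It read 10.74, 11.23 and 10.74 with carrier, 10.30, 11.01 and 11.02 with sCD74, 10.76, 11.72 and 11.98 with MIF, and 10.94, 11.58 and 11.54 with both. The sCD74 group had the lowest mean, 10.78 ± 0.41 (SD, n = 3), next to 10.91 ± 0.28 for carrier. Co-treatment (11.35 ± 0.36) and MIF (11.49 ± 0.65) stood higher. Parts of this order were seen in other members. The sCD74 mean was also the lowest for Gbp7 (11.82, carrier 11.91) and, by -0.00 from carrier, for Irgm2. MIF also stood above co-treatment for Iigp1 (9.10 and 8.91). MIF exceeded sCD74 in each number, by 0.45, 0.72 and 0.95, and co-treatment exceeded sCD74 by 0.64, 0.58 and 0.51. Neither passed the test: the MIF against sCD74 difference was 0.71 ± 0.31 (SE, unadjusted p 0.0386, adjusted p 1.00), and with the block its adjusted p was 0.965. Neighbouring levels, sCD74 and carrier (-0.13 ± 0.31, SE) and co-treatment and MIF (-0.13 ± 0.31), differed by less than their error. For Irf1, MIF against carrier gave 0.58 ± 0.31 (unadjusted p 0.0817; adjusted p 0.702 with the block).

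**Figure D2:**
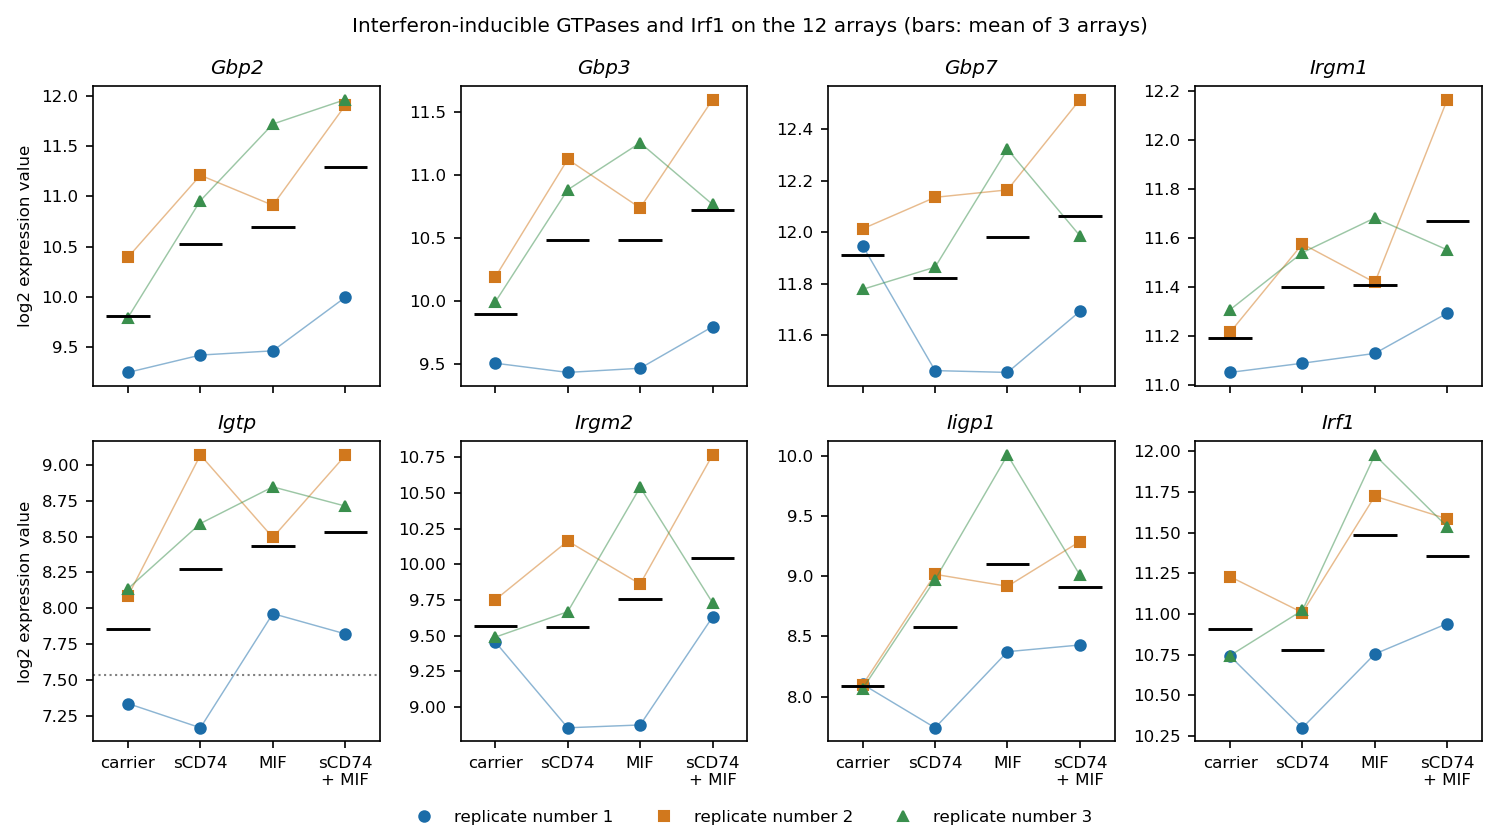
Log2 expression value (y axis) of the 8 measured genes on the 12 arrays, by treatment (x axis), with lines joining arrays of 1 replicate number and bars at the mean of 3 arrays. Number 1 is the lowest trace in most panels, and Iigp1 carrier arrays coincide near 8.09; the dotted line for Igtp is 7.53.

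The comparisons with carrier share the same 3 carrier arrays. In each treatment comparison, limma called 0 of 19505 genes (0%) at an adjusted p of 0.05, and so 0 members in the comparisons that were tested. At an unadjusted p under 0.05 the counts over all genes were 350 for sCD74, 653 for MIF and 780 for co-treatment against carrier. They were 465 for co-treatment against MIF, 520 for co-treatment against sCD74, 535 for MIF against sCD74 and 363 for the departure from additivity. Each count is a smaller share of the 19505 genes than the 0.05 that would pass such a limit if no gene differed. That fit had no replicate block, so the spread between numbers entered its error. With the block the shares were 4.19% for sCD74, 6.43% for MIF and 8.23% for co-treatment against carrier. They were 4.43% for co-treatment against MIF, 5.4% for co-treatment against sCD74, 4.91% for MIF against sCD74 and 3.86% for the departure. Of the 7 members other than Gbp2, 0 had an unadjusted p under 0.05 for sCD74 and 1 (Iigp1) for MIF against carrier. Blocking on the replicate number turned these into 1 of 7 and 4 of 7, beside 4.19% and 6.43% of all genes, and called 0 members.

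With sCD74, 5 of the 8 members had a mean above carrier, with a median difference of 0.32, beside -0.00 over all genes. Those above carrier in all 3 pairs were 2 of 8, Gbp2 and Irgm1, against 12.4% of genes. With sCD74 array 1 left out, 8 of 8 members were above carrier. That fit, like the others without 1 array, had no replicate block. Its groups then held unlike replicate numbers, so the difference between numbers enters the count and the median. Leaving out 1 array or replicate number moved the median between 0.07 and 0.64. With MIF, 8 of 8 had a mean above carrier, with a median of 0.58 beside 0.01 over all genes, and 5 of 8 (Gbp2, Irgm1, Igtp, Iigp1 and Irf1) were above in all 3 pairs, against 13.7%. Without MIF array 3 the median was 0.27 and 6 of 8 were above carrier, Gbp7 and Irgm2 being below; without carrier array 1 it was 0.36, and without MIF array 1 it was 0.88. With both proteins, 8 of 8 had a mean above carrier, with a median of 0.58 beside 0.00, and 7 of 8 were above in all pairs, against 14.2%. That last comparison chose Gbp2, so nothing is read from its counts. The sCD74 and MIF counts use the carrier arrays that also chose Gbp2, so Gbp2 adds no support to them.

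The size of these differences was unlike between replicate numbers. Each number holds 1 array per group, so a dependence on the number cannot be told apart from the spread of single arrays. It was not tested. Averaged over the 8 members, Gbp2 included, sCD74 differed from carrier by -0.24 in number 1, 0.54 in number 2 and 0.52 in number 3. The MIF differences were 0.01, 0.41 and 1.13, and the co-treatment differences 0.28, 0.99 and 0.74. Number 1 gave the smallest value under each treatment. The 13 macrophage genes, averaged the same way, differed by -0.37, 0.00 and -0.37 with sCD74, by -0.13, -0.28 and -0.05 with MIF, and by -0.18, 0.00 and -0.16 with both. The macrophage list mean ranged from 12.34 to 13.47 in carrier, 11.97 to 13.47 with sCD74, 12.21 to 13.19 with MIF and 12.16 to 13.47 with both.

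**Figure D3:**
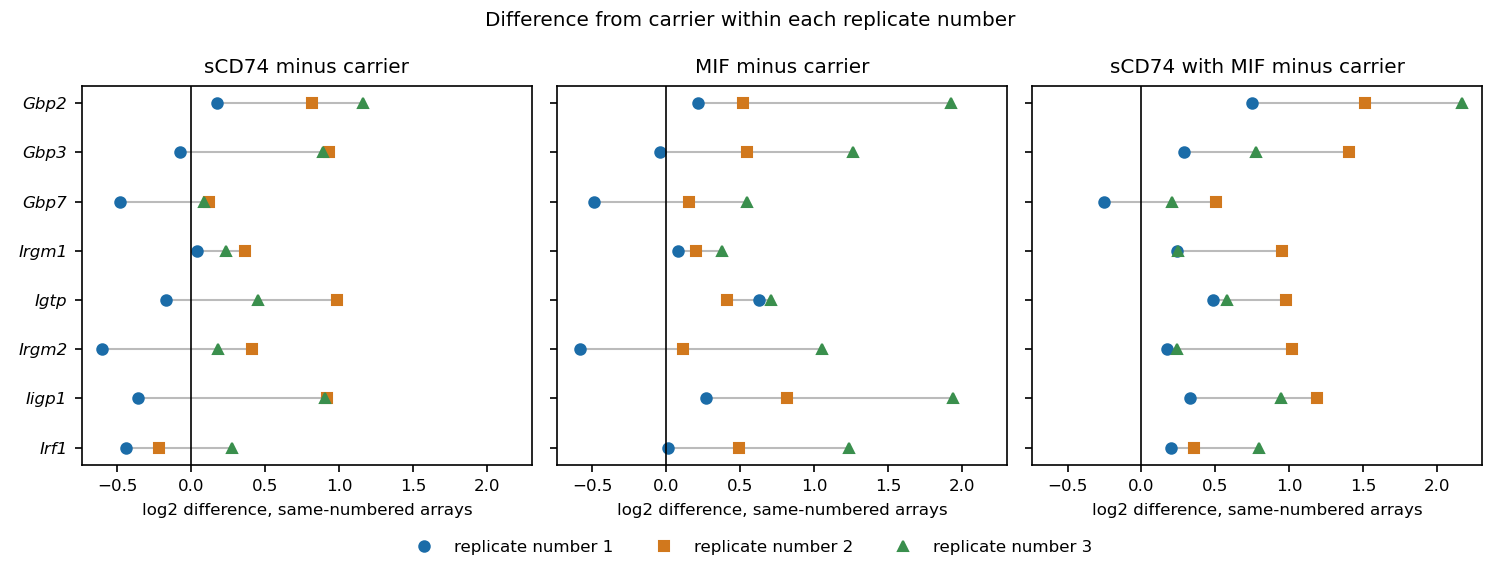
Log2 difference from the carrier array of the same replicate number (x axis) for each measured gene (rows), in 1 panel per treatment; symbols are the replicate numbers. Gbp2 with both proteins spans 0.75 to 2.16, and number 1 lies nearest to or below 0 in most rows.

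The effect of adding sCD74 to MIF was read from co-treatment against MIF, which had a median of 0.17 over the members, with 6 of 8 above 0. Without MIF array 1 the median was -0.17 with 1 of 8 above 0, and without co-treated array 2 it was -0.15 with 2 of 8. As before, a fit without 1 array compares groups of unlike replicate numbers. Averaged over the 8 members, co-treatment minus MIF was 0.26, 0.58 and -0.39 in numbers 1, 2 and 3, so no direction is read from it. Above MIF in all 3 pairs was 1 of 8, Gbp2, near the 12.2% over all genes. Co-treatment against sCD74 had a median of 0.30, with 8 of 8 above 0. The median was 0.09 without sCD74 array 1, with 5 of 8 above 0, and otherwise ran from 0.07 without co-treated array 2 to 0.65 without co-treated array 1. Members above in all 3 pairs were 6 of 8 (Gbp2, Gbp7, Irgm1, Irgm2, Iigp1 and Irf1), against 14.8% of genes. Gbp2 was chosen on these co-treated arrays, so it adds no support to the counts against MIF or sCD74. Departures from the sum of the single treatments ran from -0.68 ± 0.56 (SE, Iigp1, unadjusted p 0.252) to 0.29 (Irgm2), and Gbp2 stood at -0.13.

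The members also differed between replicate numbers. Every member had its lowest number mean in number 1. Gbp2 averaged 9.53 ± 0.32 (SD, n = 4) in number 1, 11.10 ± 0.63 in number 2 and 11.11 ± 0.97 in number 3. Irf1 averaged 10.69 ± 0.27, 11.39 ± 0.33 and 11.32 ± 0.55. The 4 arrays of a number are 1 of each treatment, so these SDs include differences between treatments. No number was itself repeated, so the p-values below measure the spread between arrays and not between repeats of a number. In limma, with treatment as a term, number 1 was lower than numbers 2 and 3 for 8 of 8 members, beside 16.4% of all genes called, 9.39% lower and 7.03% higher. The differences were -1.57 ± 0.19 (SE, adjusted p 0.000165) for Gbp2, -1.27 ± 0.18 (0.000482) for Gbp3, -1.05 ± 0.15 (0.000593) for Igtp and -0.67 ± 0.13 (0.00416) for Irf1. The other 4 were -0.79 ± 0.21 for Irgm2, -0.76 ± 0.21 for Iigp1, -0.46 ± 0.13 for Gbp7 and -0.42 ± 0.12 for Irgm1, with adjusted p of 0.024, 0.026, 0.032 and 0.029. The member median was -0.78, beside 0.02 over all genes. Gbp3 and Igtp alone had all 4 arrays of number 1 below all 8 others, against 5.71% of genes.

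Gbp2, Gbp3, Igtp and Irf1 passed without any 1 array. Irgm1 lost its call without carrier array 3, any sCD74 array, MIF array 1 or 3, or co-treated array 1 (adjusted p 0.052 to 0.112). Gbp7 lost it without any sCD74 array, MIF array 1 or 3, or co-treated array 1 or 2 (0.051 to 0.143). Iigp1 lost it without sCD74 array 1 or 2, MIF array 1, or co-treated array 1 or 2 (0.052 to 0.129), and Irgm2 without sCD74 array 1 or 2 or MIF array 1 (0.052 to 0.117). Members called numbered 4 without sCD74 array 1, sCD74 array 2 or MIF array 1, and 5 without co-treated array 1. Their direction held without each array. Numbers 3 and 2 were not told apart for any member: limma called 0 of 8 (0 at an unadjusted p under 0.05 too), beside 1.15% of genes (0.441% higher, 0.708% lower). Irgm2 differed by -0.28 ± 0.25 and Iigp1 by 0.18 ± 0.24 (SE).

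The cell type markers moved with the replicate number too. Number 1 was lower for 13 of 13 macrophage genes, among them Aif1 at -1.84 and Csf1r at -1.64, and the list mean was 11.97 to 12.34 in number 1, 13.19 to 13.47 in number 2 and 12.75 to 13.11 in number 3. For endothelial genes 7 of 10 were called higher in number 1, among them Cdh5 at 2.67, Pecam1 at 2.48 and Emcn at 2.33, and 1, Vwf, was called lower. Of fibroblast markers, 0 of 9 were called, and their list mean was 15.34 to 15.45, 15.23 to 15.34 and 15.35 to 15.44. Contractile genes, which mark the myofibroblast state, were called higher in number 1 for 4 of 6 (median 0.35), and cardiomyocyte genes for 4 of 8 (median 0.44). Between numbers 3 and 2, where 0 members were called, 6 of 8 cardiomyocyte genes (median -1.47) and 2 of 13 macrophage genes were called lower, and 4 of 10 endothelial genes higher. The part of these markers in the members' difference between numbers was not tested.

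Genes of related lists also differed between numbers. Of 12 other interferon-inducible GTPases, 9 were called lower in number 1 (median -0.49), among them Gbp8 at -0.98 ± 0.10 (SE, adjusted p 4.16e-05), Gm5431 at -0.55 (0.00342), 9930111J21Rik1 at -0.42 (0.00527) and 9930111J21Rik2 at -0.45 (0.00566). Of 15 genes of the type I interferon pathway, 7 were called lower (median -0.61). Ifit3, an antiviral tetratricopeptide protein, stood at -2.14 ± 0.18 (1.62e-05), Isg15, a ubiquitin-like modifier, at -1.30 (0.000258), Ifit1 at -1.53 (0.0028) and Cmpk2 at -0.67 (0.00382). Of 18 interferon-gamma pathway genes, 7 were called lower and 1 higher (median -0.03). The lower ones included Psmb9 at -0.72 (0.000139), Tap1 at -0.72 (0.00138) and Psmb8 at -0.87 (0.00253), which make and transport peptides for MHC class I, and the higher one was Nos2 at 0.78 (0.00158), the inducible nitric oxide synthase. Of 7 NF-kappaB feedback genes, 5 were called lower and 1, Nfkbiz, higher at 0.42 (0.00794). Birc3 stood at -0.48 (0.00732), Tnfaip3 at -0.68 (0.0137) and Nfkbia at -0.42 (0.0166).

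**Figure D4:**
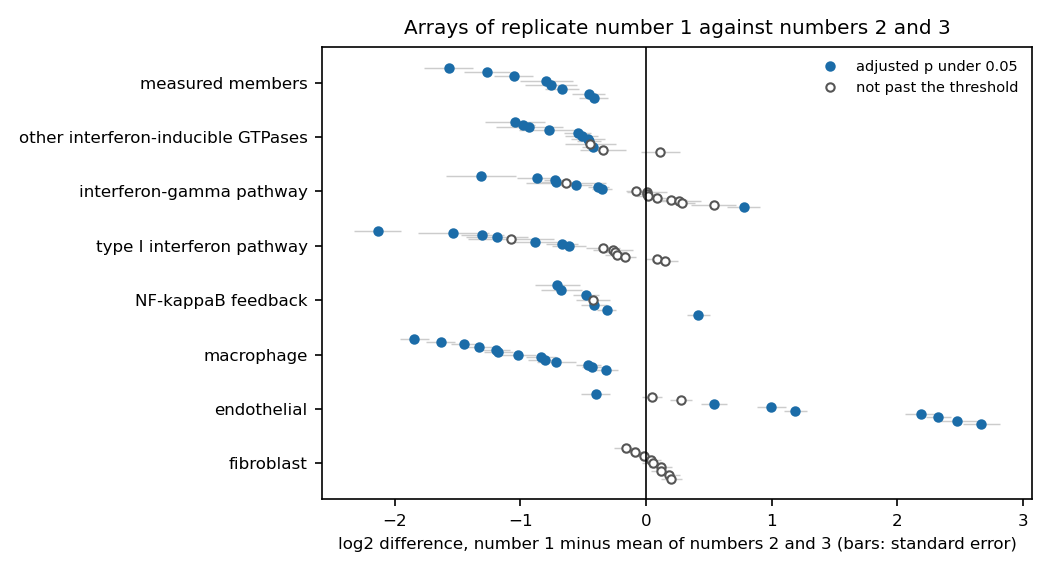
Log2 difference of replicate number 1 from the mean of numbers 2 and 3 (x axis) for each measured gene (points) of 8 lists (rows), with bars for standard errors from limma; filled points passed an adjusted p of 0.05. All 8 members are filled and lie from -1.57 to -0.42; the 13 macrophage genes are filled and below 0, 7 endothelial genes are filled and above 0, and 0 of 9 fibroblast markers are filled.

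No list gene passed the test between treatments. With the replicate block, an intensity trend and robust variance together, 1 did: Birc3, of the NF-kappaB feedback list. Its adjusted p in limma was then 0.0462 for MIF and 0.0185 for both against carrier, and 0.0373 for both against sCD74. For sCD74, MIF and both against carrier, the median difference was 0.50, 0.20 and 0.37 for the type I pathway, with 13, 14 and 14 of 15 genes above 0. It was 0.07, 0.60 and 0.63 for NF-kappaB feedback, with 6 of 7 above 0 each time, and 0.03, 0.10 and 0.13 for the interferon-gamma pathway. The other GTPases had medians of 0.14, 0.09 and 0.30. By this measure the type I list was higher with sCD74 than with MIF, NF-kappaB feedback genes the reverse, a difference between lists that was not tested. In numbers 1, 2 and 3, MIF minus sCD74 was 0.04, -0.50 and 0.02 for the type I list mean. That order thus came from number 2 alone. For the NF-kappaB feedback list mean it was 0.03, 0.52 and 0.65. The ligand gene of the interferon-gamma pathway, Ifng, had a mean of 7.14, below 7.53, and ranged from 6.69 to 7.61. The receptor genes Ifngr1 and Ifngr2 were measured at 13.62 to 14.06 and 12.88 to 13.58. Ifnb1, which encodes interferon-beta, ranged from 7.50 to 8.07.

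To see which members varied together beyond the replicate number, each array's value was taken as its deviation from the mean of its number, over 12 arrays. These points share 3 number means and the same arrays, so the correlations are a description. Among the 7 GTPases, 21 pairs correlated with r from 0.41 to 0.91 (median 0.77), and the 7 pairs with Irf1 from 0.43 to 0.78 (median 0.63). The comparison took 11289 other genes with a mean above 7.53. Symbols of predicted genes, clones and some families, such as olfactory receptors, were passed over when the closest genes were named. Among the rest, those most like Gbp2 were H2-Q4 (r = 0.96), an MHC class I gene, Ifi211 (0.95), Ddx58 (0.95), which encodes the RNA sensor RIG-I, Dram1 (0.94) and Oasl2 (0.93). The ranks of members count all 11289 genes. Gbp3 was the closest member to Gbp2, at 0.87 and rank 32, and Irf1 ranked 406 at 0.68. Those most like Irf1, with the same symbols passed over, were Fgf23 (0.95), Sele (0.94), which encodes E-selectin, Il1b (0.92), Gch1 (0.92) and Tnf (0.92). Iigp1 was the member closest to Irf1, at 0.78 and rank 65.

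**Figure D5:**
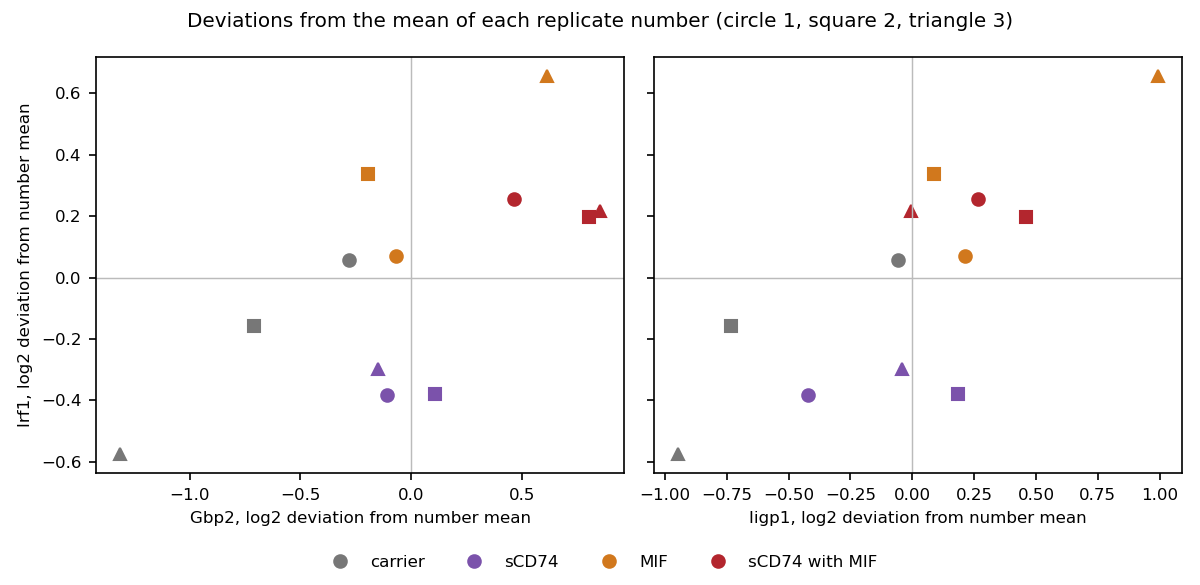
Deviation of Irf1 from its replicate-number mean (y axis, log2) against that of Gbp2 (left) and Iigp1 (right) on the 12 arrays, coloured by treatment, with symbols for the replicate number. The sCD74 arrays lie below 0 for Irf1 in every number, and the co-treated arrays lie above 0 for Irf1 and Gbp2.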

How the data were processed

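Values of 12 arrays were used as deposited: log2 expression per probe set, which the authors made, per the submitters' processing notes, with Affymetrix Expression Console and RMA (versions not given in the sources used here). They ran from 3.08 to 18.39. Of 28846 probe sets, 6640 controls were left out, and 19572 had 1 symbol; taking the probe set with the highest mean per symbol left 19505 genes. Moderated two-sided tests came from limma 3.58.1 under R 4.3.3 (4 group means; Benjamini-Hochberg over all genes at 0.05); the replicate-number comparisons had treatment as a term. The script was tested on simulated data. For the treatment comparison these held no difference between replicate numbers, unlike the arrays. They therefore do not show how the fit without the block behaves with such a difference. Members and lists were chosen with earlier results of these data known. The list genes named were the called ones with the 4 smallest p in each list, beside the members. The genes named as most like Gbp2 and Irf1 were the first 5 each after predicted genes and similar symbols were passed over. The markers named were chosen after their values were seen. Same-numbered arrays share a code in the titles; their deviations correlated with a median r of 0.433 (above 0.1 in 17 of 18 pairs), so the numbers were taken to pair arrays. Alternatives were the replicate block, an intensity trend with robust variance, median centring, a second quantile normalization, a filter at the negative control median, means over probe sets and leaving out arrays. The number of arrays limits the precision.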

Additional observations from a re-analysis of the deposited data

How the results depend on the processing

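Blocking on the replicate number, limma again called 0 genes in each treatment comparison and so changed no call. The replicate block lowered the median standard error over all genes from 0.169 to 0.141. For the members it fell by more, from 0.64 to 0.26 for Gbp2, 0.31 to 0.18 for Irf1 and 0.22 to 0.16 for Irgm1. The errors given with the members' treatment differences are those without the block, so they include the spread between numbers. With the block, an intensity trend and robust variance together, 1 gene was called for MIF and 6 for co-treatment against carrier. For co-treatment against sCD74, 2 were called, and the list gene Birc3 was called in each of these comparisons. The 6 for co-treatment against carrier include the member Gbp2. That comparison chose Gbp2, so its place there is a description and no test. For replicate number 3 against number 2, 224 genes were called as reported, 734 with trend and robust variance, 540 after the negative control filter, and 59 to 227 without 1 array. For number 1, leaving out 1 array gave 2079 (without sCD74 array 1) to 3063 genes and 4 to 8 members. A second quantile normalization left 6 of 8 members called there, without Gbp7 and Irgm1.

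Directions turned for some differences, none of them called. For the treatment comparisons, fits without 1 array had no replicate block. The groups then held unlike replicate numbers, so the difference between numbers enters the ranges below. With array medians centred, Irgm2 stood at 0.0083 for sCD74 against carrier. Without 1 array or 1 replicate number, the sCD74 difference from carrier ran from -0.25 to 0.10 for Gbp7, -0.30 to 0.35 for Irgm2 and -0.33 to 0.11 for Irf1, and the MIF difference from -0.17 to 0.35 for Gbp7 and -0.24 to 0.64 for Irgm2. Irf1 for co-treatment against MIF ran from -0.50 to 0.11, and Gbp2 for MIF against sCD74 from -0.39 to 0.78. Gbp2 ran from -0.03 to 1.23 for co-treatment against MIF and from -0.74 to 0.52 for the departure from additivity, Gbp7 from -0.07 to 0.35 for co-treatment against carrier, and the member median for co-treatment against MIF from -0.17 to 0.45. For number 3 against number 2 the ranges were -0.24 to 0.28 for Gbp2, -0.10 to 0.37 for Iigp1 and -0.22 to 0.11 for Irf1. Where no value shows a cause, the cause was not tested. The 3 arrays of each group limit the precision, and Igtp and the carrier values of Iigp1 lay near the negative control level.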
